A study of Mus musculus with 4 samples.

Results

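RNA sequencing of mouse embryonic stem cells was compared between 2 libraries, labelled SO and Ldha_KO, and the other 2 of the series, WT and Ldhb_KO. SO is wild-type cells under an inhibitor treatment, as the series text calls it, and the labels do not spell the name out. Ldha_KO and Ldhb_KO are knockouts of the genes for the A and B subunits of lactate dehydrogenase, and WT, headed E14 in its table, is untreated wild-type cells. The sources used here do not state the dose or duration of SO, the number of clones behind each knockout or how the knockouts were made. The 4 groups share 1 culture protocol, with gelatin-coated dishes and a serum medium that holds LIF, and polyadenylated RNA was sequenced. Each group has 1 library, so no value below has an error or a p-value, and every difference compares libraries and not conditions. The pairing of SO with Ldha_KO is a way of sorting the libraries and does not make them replicates of a condition.

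A gene was said to separate the sides when the lower library of a side exceeded the higher library of the other by at least 1 on the log2(FPKM + 1) scale, which is a 2-fold step. FPKM is the fragment count scaled by transcript length and library depth. That distance is called the gap below, and it is 0 where the sides overlap. Of 25170 genes in the tables, 13142 reached 1 FPKM in at least 1 library and were kept, and 36 of these separated the sides. As these values chose the 36 genes, their levels and gaps are given as a description.

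Cultured mouse embryonic stem cells pass at low frequency into a state that resembles the 2-cell embryo, the stage at which the mouse switches on its own genome. The transcription factor Dux drives this programme, and Zscan4, Tcstv and Usp17l genes and tandem copies related to the translation factor Eif1a are among its outputs. Lactate dehydrogenase interconverts pyruvate and lactate, and the series title links Ldha, lactylation of the histone deacetylase Hdac1 and the 2-cell state.

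The targeted genes were low in their own knockouts. Ldha was at 1711 FPKM in SO and 154 FPKM in Ldha_KO, against 1774 FPKM in WT and 2237 FPKM in Ldhb_KO. Ldhb was at 139 FPKM in SO and 158 FPKM in Ldha_KO, against 76.5 FPKM in WT and 5.74 FPKM in Ldhb_KO. Ldhb thus nearly separated the sides, with a gap of 0.86, and Ldhb is the gene targeted in 1 of the low libraries. The testis form Ldhc, at 2.58 FPKM in SO and 4.60 FPKM in Ldha_KO, overlapped with WT at 1.24 FPKM and Ldhb_KO at 3.11 FPKM. Hdac1 overlapped too, at 49.4 and 42.0 FPKM in SO and Ldha_KO, against 56.1 and 44.7 FPKM in WT and Ldhb_KO. The stem cell markers Pou5f1, Nanog and Zfp42 were above 400 FPKM in all 4 libraries, and of 12 fibroblast or feeder markers 4 to 5 reached 1 FPKM in a library. Among these Col1a1 was at 1.69 FPKM in SO and 1.39 FPKM in Ldha_KO, against 1.20 FPKM in WT and 1.87 FPKM in Ldhb_KO, and Dcn and Lum were at 0 in every library.

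The summed values were 471595 in SO and 477538 in Ldha_KO, against 526316 in WT and 484528 in Ldhb_KO. Depth in reads is unknown. In genes detected but below 0.2 FPKM in both libraries, the ratio of their values had a cluster, read as the ratio of what 1 read is worth. It held 348 of 1484 such genes between SO and WT and 350 of 1441 between Ldha_KO and Ldhb_KO. Only ratios in a narrow window around the peak were counted, which bounds the span. The span of that cluster, from the 10th to the 90th percentile, was 0.0167% of the ratio between SO and WT and 0.219% between Ldha_KO and Ldhb_KO. The other 4 pairs had spans of 0.430% to 0.603%. The labels name no batch, and whether these spans bear on the separation was not tested.

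The separated genes lay almost wholly in 1 direction. In SO and Ldha_KO, 35 genes were higher, which is 0.266% of the genes kept, and 1 was lower, which is 0.00761%. Small gaps ran the other way in the unscaled values. The sides did not overlap, with SO and Ldha_KO higher, in 1841 genes (14%), and with them lower in 2384 genes (18.1%). Both SO and Ldha_KO had lower summed values than WT and Ldhb_KO. The median difference of the side means, over genes kept in each setting, was -0.02 unscaled. It was 0.06 with libraries scaled to equal sums and 0.02 with scaling by median ratios. The 14% and 18.1%, here and as a background below, are unscaled, and their order after scaling was not tested. At a gap of 0.5 there were 139 genes higher (1.06%) and 75 lower (0.571%), and at a gap of 2 there were 7 higher and 0 lower. The plot of genes by gap shows the curves crossing between a gap of 0 and 0.5.

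**Figure D1:**
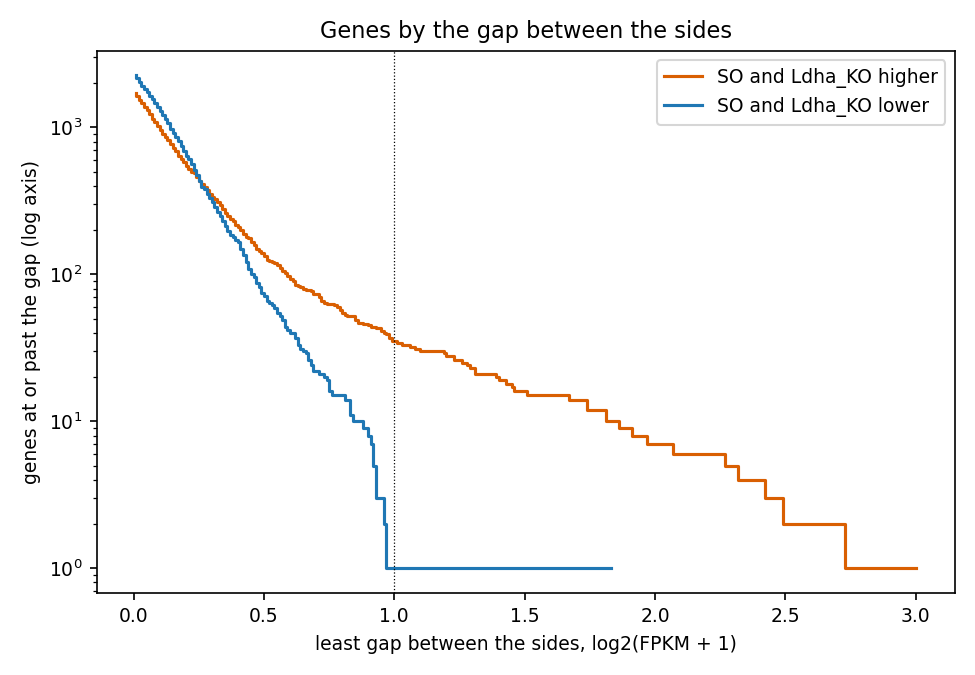
Number of kept genes (log axis) whose gap between the sides reaches the value on the horizontal axis, in log2(FPKM + 1). The orange line counts genes higher in SO and Ldha_KO and the blue line genes lower there. At the dotted line, a gap of 1, the lines stand at 35 and 1, and the leftmost counts are larger for the blue line; the orange line is drawn to a gap of 3 and Snora74a, at 4.10, lies beyond it.

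The sides can be read as a pair of comparisons that share no library, SO against WT and Ldha_KO against Ldhb_KO. Genes are not independent of each other, and over the 13142 kept the differences in these comparisons had a Pearson r of 0.10 and a Spearman rho of 0.00466. With the libraries paired the other way, SO against Ldhb_KO and Ldha_KO against WT, r was 0.00679 and rho was -0.0569. In that pairing 205 genes (1.56%) and 348 genes (2.65%) were higher by 1 or more, with 61 in common, and 264 genes (2.01%) and 139 genes (1.06%) were lower, with 8 in common. The bulk of genes thus showed next to no common order in these pairs. At 1 or more on the log2 scale, 353 genes were higher in SO than in WT (2.69% of genes kept) and 219 in Ldha_KO than in Ldhb_KO (1.67%). The overlap was 47 genes, 13.3% of the first list and 21.5% of the second. Of the 47, 35 separated the sides and 12 did not. The rule itself puts every gene separated higher in the overlap of either pairing, so the 35 are there by construction. The meiotic entry gene Stra8 is among the 12, at 9.41 FPKM in SO and 30.99 FPKM in Ldha_KO, against 2.71 FPKM in WT and 14.8 FPKM in Ldhb_KO. It was higher within each pair and yet overlaps, because Ldhb_KO lies above SO. In the lower direction, 62 genes (0.472%) and 202 genes (1.54%) passed, with 11 in common.

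**Figure D2:**
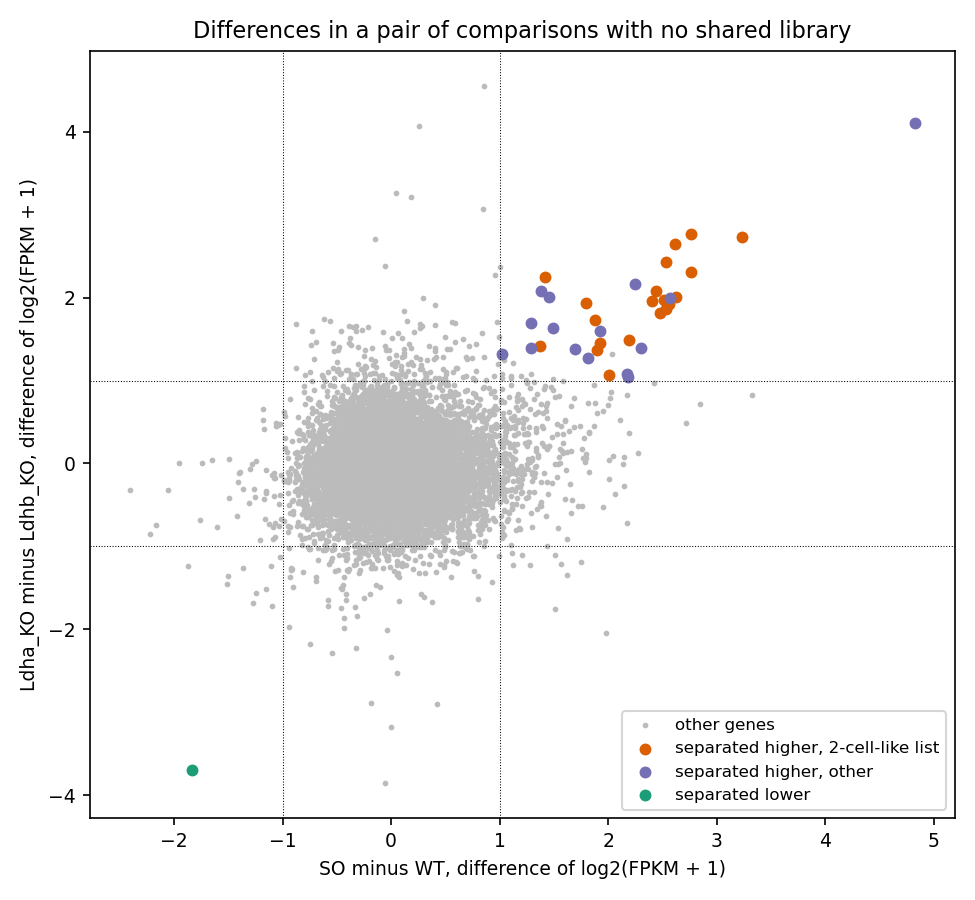
Each point is a kept gene, with the difference of log2(FPKM + 1) of SO minus WT on the horizontal axis and of Ldha_KO minus Ldhb_KO on the vertical axis; dotted lines mark 1 and -1. The grey cloud is round (Spearman rho 0.00466). The 20 separated genes of the 2-cell-like list (orange) lie past 1 on both axes, as the rule requires, where 12 grey genes lie too. Chac1 (green) is the only separated gene at the lower left, among 11 genes at or past -1 on both axes.

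The 2-cell-like genes made up 57.1% of the genes separated higher, and 20.1% of those with a gap of at least 0.5. Of 59 members of this list found in the tables, 20 separated higher (33.9%) and 0 lower, against 0.139% of all 25170 genes higher. A further 26 were higher without overlap by less than 1, so that 46 of 59 (78.0%) lay above WT and Ldhb_KO in both SO and Ldha_KO, against 11.8% of all genes, and 1 was lower without overlap. Among the other members, 6 were at 0 in every library. The rule itself needs at least 1 FPKM in both SO and Ldha_KO, so the filter on low values removed no separated gene. The median difference of the side means was 0.79 over the 59 members and -0.02 over the genes kept. Summed over the list, levels were 499 FPKM in SO and 402 FPKM in Ldha_KO, against 214 FPKM in WT and 169 FPKM in Ldhb_KO. In these bulk libraries, more cells in the state and more RNA per cell cannot be told apart.

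**Figure D3:**
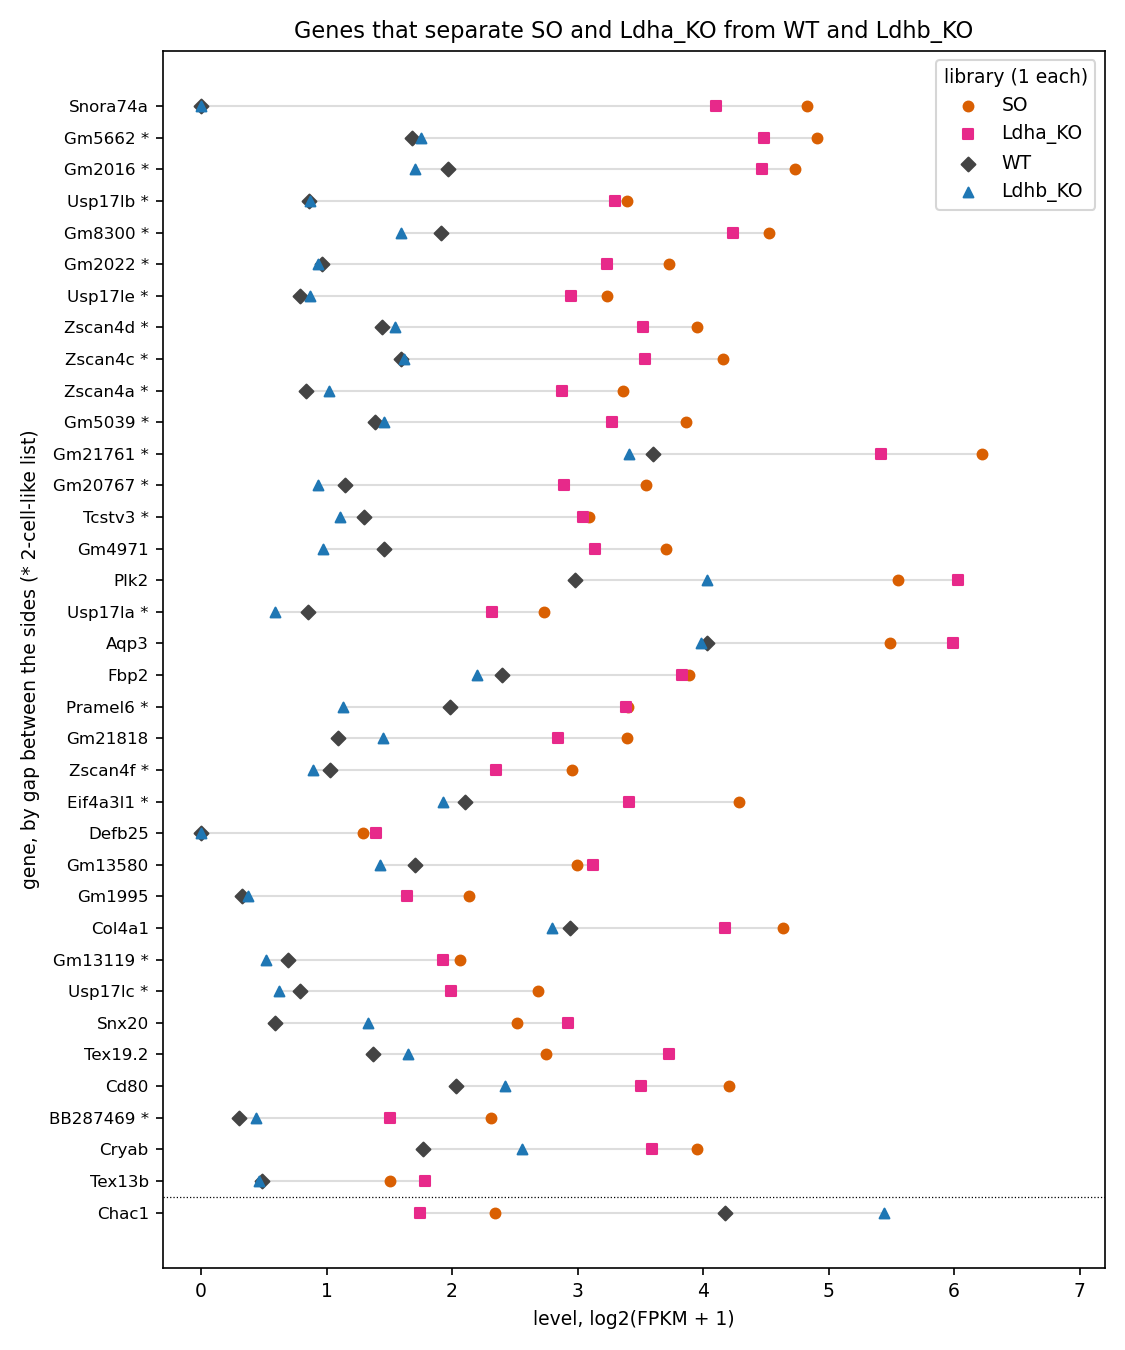
Level of each of the 36 separated genes in log2(FPKM + 1), with SO as orange circles, Ldha_KO as pink squares, WT as grey diamonds and Ldhb_KO as blue triangles, 1 library each; rows are ordered by gap and an asterisk marks the 2-cell-like list. In the 35 rows above the dotted line SO and Ldha_KO lie to the right, and in every row with an asterisk the SO circle lies to the right of the Ldha_KO square.

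Zscan4 genes encode zinc finger and SCAN domain proteins that act in telomere maintenance and mark the 2-cell-like state. Zscan4c was at 16.9 FPKM in SO and 10.6 FPKM in Ldha_KO, against 2.03 FPKM in WT and 2.06 FPKM in Ldhb_KO, a gap of 1.92. Zscan4d was at 14.5 and 10.5 FPKM in SO and Ldha_KO, against 1.72 and 1.92 FPKM in WT and Ldhb_KO. The lower of the high libraries was thus 5.13-fold and 5.47-fold above the higher of the low ones. Zscan4a, which RefSeq lists as a transcribed pseudogene, had 9.28 FPKM in SO and 6.35 FPKM in Ldha_KO, against 0.781 FPKM in WT and 1.02 FPKM in Ldhb_KO. Zscan4f had 6.75 FPKM in SO and 4.10 FPKM in Ldha_KO, against 1.04 FPKM in WT and 0.856 FPKM in Ldhb_KO. Of the 5 family members in the tables, Zscan4b alone missed the rule, with a gap of 0.92 at 2.62 and 1.60 FPKM in SO and Ldha_KO, against 0.299 and 0.379 FPKM in WT and Ldhb_KO. WT and Ldhb_KO differed by at most 0.19 on the log2 scale in the 4 separated members. The order of the levels was SO, then Ldha_KO, in each of the 5.

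The start regions of these copies are near repeats of each other, which is why they are shown. RefSeq (GRCm38.p6) gives a window of 300 bases, from 250 before to 50 after the annotated start, for 20 of the 36 separated genes. Each window reads 5′ to 3′ on the gene's strand, and capitals mark the letters TATAAA, the core of a TATA box. Zscan4c lies at chr7:11005495-11005794 on the plus strand, Zscan4d at chr7:11166099-11166398 on the minus strand and Zscan4f at chr7:11397665-11397964 on the plus strand.
Zscan4c: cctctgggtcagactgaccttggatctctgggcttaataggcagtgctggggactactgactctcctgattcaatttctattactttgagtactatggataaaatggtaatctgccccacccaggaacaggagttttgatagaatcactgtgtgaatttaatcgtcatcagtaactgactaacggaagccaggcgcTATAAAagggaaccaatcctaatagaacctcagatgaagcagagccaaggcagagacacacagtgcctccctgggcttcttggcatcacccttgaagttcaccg
Zscan4d: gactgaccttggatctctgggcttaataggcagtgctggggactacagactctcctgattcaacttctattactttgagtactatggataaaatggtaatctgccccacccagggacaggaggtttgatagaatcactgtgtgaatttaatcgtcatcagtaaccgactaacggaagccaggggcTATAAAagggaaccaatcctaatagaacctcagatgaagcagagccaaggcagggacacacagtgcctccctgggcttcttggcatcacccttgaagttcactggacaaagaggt
Zscan4f: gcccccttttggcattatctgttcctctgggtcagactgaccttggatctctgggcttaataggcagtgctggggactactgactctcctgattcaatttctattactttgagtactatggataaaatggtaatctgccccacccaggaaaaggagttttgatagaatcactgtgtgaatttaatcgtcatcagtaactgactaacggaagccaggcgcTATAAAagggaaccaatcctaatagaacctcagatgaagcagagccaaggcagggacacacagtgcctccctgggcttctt
By edit distance the Zscan4c window was 90.3% identical to that of Zscan4d and 84% to that of Zscan4f, and part of the difference is that the annotated starts are set at different points of the same sequence. The first T of TATAAA lies at -54, -65 and -31 from the annotated start in Zscan4c, Zscan4d and Zscan4f. Searched on both strands, TATAAA was found in 8 of the 20 windows of separated genes (40%) and in 13.6% of all 32851 RefSeq windows of this length. The 8 are Zscan4c, Zscan4d, Zscan4f, Usp17lb, Usp17lc, Gm13119, Aqp3 and Cd80. Several are copies of each other, so the 8 do not count as separate sequences. In Cd80 the match lies on the opposite strand, at 4 past the annotated start. Whether any match acts as a TATA box was not tested.

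Usp17l genes encode deubiquitinases, enzymes that remove ubiquitin from proteins, and sit as tandem copies on chromosome 7. Usp17lb had 9.49 FPKM in SO and 8.83 FPKM in Ldha_KO, against 0.815 FPKM in WT and 0.829 FPKM in Ldhb_KO. Its lower high library lay 10.7-fold above its higher low library, the largest such ratio among the separated genes that were above 0 in WT or Ldhb_KO. Usp17le was at 8.39 and 6.71 FPKM in SO and Ldha_KO, against 0.732 and 0.826 FPKM in WT and Ldhb_KO. Usp17la had 5.64 and 3.99 FPKM in SO and Ldha_KO, against 0.808 and 0.502 FPKM in WT and Ldhb_KO. Usp17lc had 5.44 and 2.97 FPKM in SO and Ldha_KO, against 0.724 and 0.541 FPKM in WT and Ldhb_KO. All 4 were therefore below 1 FPKM in both WT and Ldhb_KO. The fifth member, Usp17ld, reached 1.19 FPKM in SO and 1.19 FPKM in Ldha_KO, against 0.270 and 0.257 FPKM in WT and Ldhb_KO, with a gap of 0.78. Start windows of 3 members, printed to set the copies side by side, lie in GRCm38.p6 at chr7:104842534-104842833 on the minus strand for Usp17lb, and on the plus strand at chr7:103416446-103416745 for Usp17lc and chr7:104856766-104857065 for Usp17la.
Usp17lb: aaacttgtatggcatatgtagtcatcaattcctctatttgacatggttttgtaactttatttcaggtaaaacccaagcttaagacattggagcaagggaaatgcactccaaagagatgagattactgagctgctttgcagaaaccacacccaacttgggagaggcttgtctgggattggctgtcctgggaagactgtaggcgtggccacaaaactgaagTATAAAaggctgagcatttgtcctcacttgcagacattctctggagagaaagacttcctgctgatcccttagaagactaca
Usp17lc: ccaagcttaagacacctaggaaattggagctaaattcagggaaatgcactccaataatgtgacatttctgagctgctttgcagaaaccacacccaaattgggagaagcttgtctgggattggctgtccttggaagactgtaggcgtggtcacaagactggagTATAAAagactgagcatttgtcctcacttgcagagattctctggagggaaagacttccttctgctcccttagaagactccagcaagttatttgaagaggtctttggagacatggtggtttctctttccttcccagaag
Usp17la: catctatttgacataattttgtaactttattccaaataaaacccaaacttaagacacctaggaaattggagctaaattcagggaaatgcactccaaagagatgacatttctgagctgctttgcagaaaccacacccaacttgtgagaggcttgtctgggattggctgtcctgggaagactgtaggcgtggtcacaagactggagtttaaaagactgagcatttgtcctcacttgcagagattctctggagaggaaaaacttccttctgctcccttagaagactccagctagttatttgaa
The Usp17lb window was 74.7% identical to that of Usp17la and 56% to that of Usp17lc. In these windows TATAAA is at -31 in Usp17lb and at -88 in Usp17lc, and Usp17la holds no match.

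A run on chromosome 12 carried 7 of the separated genes, among them the Eif1a-like copies Gm5662, Gm2016, Gm2022 and Gm8300. Gm5662 was at 29.1 FPKM in SO and 21.4 FPKM in Ldha_KO, against 2.21 FPKM in WT and 2.37 FPKM in Ldhb_KO, and its gap of 2.73 was the largest on the list. Gm2016 had 25.5 and 21.1 FPKM in SO and Ldha_KO, against 2.91 and 2.25 FPKM in WT and Ldhb_KO. Gm8300 had 22.03 and 17.8 FPKM in SO and Ldha_KO, against 2.77 and 2.02 FPKM in WT and Ldhb_KO. These 3 thus shared a near-common level in each library. Gm2022 followed at 12.3 FPKM in SO and 8.42 FPKM in Ldha_KO, against 0.952 FPKM in WT and 0.905 FPKM in Ldhb_KO. Gm5039, listed as a transcribed pseudogene, was at 13.5 and 8.67 FPKM in SO and Ldha_KO, against 1.62 and 1.74 FPKM in WT and Ldhb_KO. BB287469 (3.97 and 1.83 FPKM in SO and Ldha_KO, 0.234 and 0.355 FPKM in WT and Ldhb_KO) and the pseudogene Gm1995 (3.40 and 2.11 FPKM in SO and Ldha_KO, 0.254 and 0.293 FPKM in WT and Ldhb_KO) were the lowest of the run. Gm1995 was not on the 2-cell-like list and lies among its members. Between the ends of the run, by gene order in GRCm38.p6, the tables hold 16 genes. Of these 10 were higher without overlap, 0 were lower and 2 were at 0 in every library. The 10 include the 7 separated genes, which set the ends of the run by construction. Among all genes 11.8% were higher without overlap. Eif1a itself overlapped at 107 and 123 FPKM in SO and Ldha_KO, against 133 and 99.9 FPKM in WT and Ldhb_KO.

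On chromosome 13, 4 separated genes lay within a run of 8 table genes, with 7 of the 8 higher without overlap and 0 lower. The 7 include the 4 separated genes, which bound the run by construction, and 11.8% of all genes were higher without overlap. Tcstv3, of the 2-cell-stage variable group, was at 7.52 FPKM in SO and 7.23 FPKM in Ldha_KO, against 1.45 FPKM in WT and 1.16 FPKM in Ldhb_KO. Gm21761 had the highest level of any separated gene, with 73.7 FPKM in SO and 41.7 FPKM in Ldha_KO, against 11.1 FPKM in WT and 9.60 FPKM in Ldhb_KO. Gm20767 was at 10.7 and 6.42 FPKM in SO and Ldha_KO, against 1.21 and 0.910 FPKM in WT and Ldhb_KO. Gm21818, a neighbour outside the 2-cell-like list, was at 9.52 and 6.18 FPKM in SO and Ldha_KO, against 1.13 and 1.73 FPKM in WT and Ldhb_KO. SO was the highest library in all 4 of these genes. BC147527, in the same run, missed the rule with a gap of 0.98. The runs together account for 18 of the 35 genes: 7 on chromosome 12, 4 on chromosome 13, and on chromosome 7 a run of 4 Zscan4 genes and a run of 3 Usp17l genes. Separated genes made up 1.54% of kept genes on chromosome 12, 1.23% on chromosome 13 and 0.840% on chromosome 7.

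Pramel6, Eif4a3l1 and Gm13119 are the separated members of the 2-cell-like list that lie outside these families. Pramel6, of the PRAME family expressed in early embryos, had 9.56 FPKM in SO and 9.44 FPKM in Ldha_KO, against 2.95 FPKM in WT and 1.19 FPKM in Ldhb_KO. Eif4a3l1, a copy related to the RNA helicase gene Eif4a3, had 18.5 and 9.64 FPKM in SO and Ldha_KO, against 3.29 and 2.80 FPKM in WT and Ldhb_KO. Gm13119, another PRAME-like gene, had 3.17 and 2.80 FPKM in SO and Ldha_KO, against 0.615 and 0.429 FPKM in WT and Ldhb_KO. All 3 were highest in SO.

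Several well-known genes of the state did not meet the rule. Dux was at 0.161 FPKM in SO and 0.254 FPKM in Ldha_KO and was listed at 0 in WT and Ldhb_KO, and such levels are too low for a gap of 1. Zfp352 was at 1.67 FPKM in SO and 0.597 FPKM in Ldha_KO, against 0.186 FPKM in WT and 0.106 FPKM in Ldhb_KO. Tcstv1 was at 0.232 and 0.369 FPKM in SO and Ldha_KO, against 0 and 0.116 FPKM in WT and Ldhb_KO. In these 3 the sides did not overlap, so the gap was limited by low values. Ddit4l, an inhibitor of mTOR signalling, came closer with a gap of 0.82, at 18.0 and 14.3 FPKM in SO and Ldha_KO, against 3.20 and 7.65 FPKM in WT and Ldhb_KO. Zfp750, at 11.1 and 7.36 FPKM in SO and Ldha_KO, against 2.14 and 4.42 FPKM in WT and Ldhb_KO, had a gap of 0.63. Pramel7 stood apart from Pramel6, with 11.6 FPKM in SO but 3.04 FPKM in Ldha_KO, against 2.09 FPKM in WT and 0.618 FPKM in Ldhb_KO. Zfp534 overlapped, at 17.1 and 20.4 FPKM in SO and Ldha_KO, against 25.3 and 12.01 FPKM in WT and Ldhb_KO.

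The 2 libraries of the higher side were not equal. All 20 separated 2-cell-like genes were higher in SO than in Ldha_KO. They differed by 0.02 to 0.88 on the log2(FPKM + 1) scale, with a median of 0.46. The median over the genes kept was 0.00460. Over the whole list, 40 of the 59 members found were higher in SO than in Ldha_KO. Of all 25170 genes, 8991 were higher in SO and 6200 were at 0 in every library. Many of the 20 are copies that share reads, so they do not count as separate observations. Of the 15 other separated genes, 8 were higher in SO and 7 in Ldha_KO. None of the 35 differed by 1 or more between SO and Ldha_KO. Such differences were rare among the genes kept too, with 98 (0.746%) higher in SO and 144 (1.1%) higher in Ldha_KO. None among 35 genes is thus near the share over all genes kept. The largest differences within the side were in Tex19.2, lower in SO by 0.98, Eif4a3l1, higher in SO by 0.88, and BB287469 and Gm21761, higher in SO by 0.81 each. On the lower side, Ldhb_KO minus WT had a median of -0.15 over the 20 genes and ranged from -0.85 in Pramel6 to 0.19 in Zscan4a. Among the genes kept, 441 (3.36%) were higher by 1 or more in Ldhb_KO than in WT and 143 (1.09%) were lower.

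Sequence sharing limits the reading of single copies. In GENCODE M21 transcripts, the share of a gene's 50-base words that also occur in another gene's transcripts, on the same strand, had a median of 48.5% over the 20 separated 2-cell-like genes. It was 0% at the median over the 15 other separated genes and over the 13056 kept genes that could be matched. At least 50% of words were shared in 9 of the 20 and in 2.41% of the kept genes. The values were 97.2% for Gm2022, 96.6% for BB287469, 86.8% for Zscan4f, 85.5% for Zscan4c and 49.6% for Zscan4d. Reads from such stretches can be assigned to any of the copies, so the sum over a family is firmer than the value of a copy. The 5 Zscan4 members summed to 50.05 FPKM in SO and 33.1 FPKM in Ldha_KO, against 5.86 FPKM in WT and 6.24 FPKM in Ldhb_KO. The 5 Usp17l members summed to 30.2 FPKM in SO and 23.7 FPKM in Ldha_KO, against 3.35 FPKM in WT and 2.95 FPKM in Ldhb_KO. Pramel6 shared 0% of its words and separated as well.

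**Figure D4:**
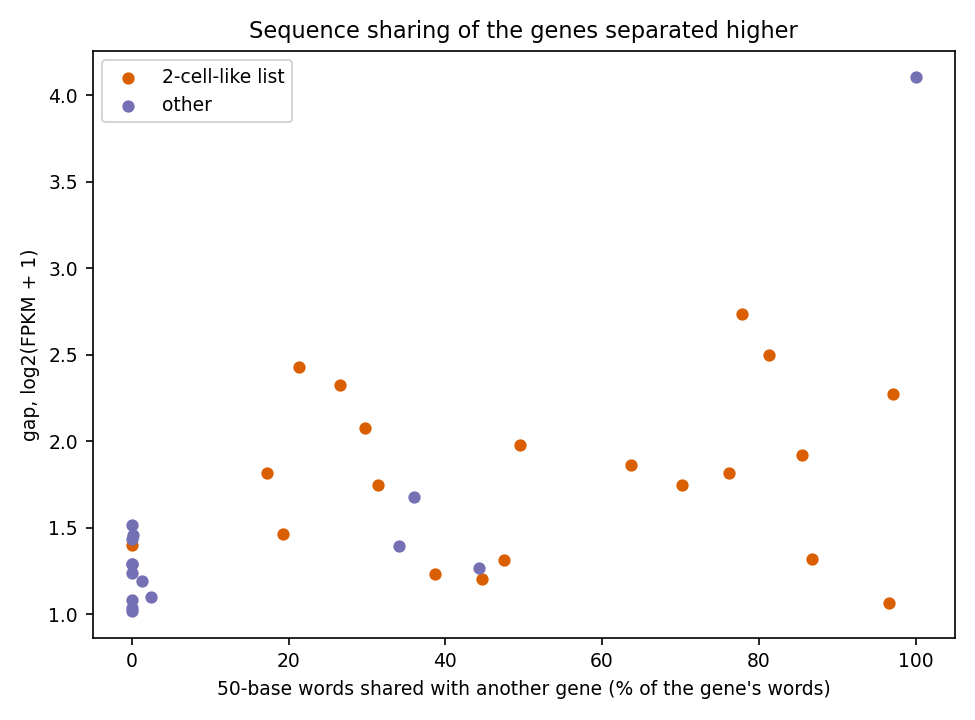
Gap between the sides in log2(FPKM + 1) against the percentage of a gene's 50-base words that occur in another gene's transcripts, for the 35 genes separated higher. Orange points are the 2-cell-like list (median 48.5%), purple points the other genes (median 0%), and the point at 100% is Snora74a.

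Outside the 2-cell-like list, 15 genes separated higher. Among them were 2 of the 30 p53 targets, where 0.266% of genes kept separated higher. Plk2, a polo-like kinase induced by p53, was at 45.9 FPKM in SO and 64.5 FPKM in Ldha_KO, against 6.89 FPKM in WT and 15.4 FPKM in Ldhb_KO. It is the only one of the 35 in which WT and Ldhb_KO differed by 1 or more, with Ldhb_KO higher by 1.05. Cd80, a co-stimulatory ligand for T cells, had 17.4 and 10.3 FPKM in SO and Ldha_KO, against 3.09 and 4.35 FPKM in WT and Ldhb_KO. A further 7 of the list were higher with gaps of 0.5 to 1, where 104 of the 13142 genes kept were. The 7 include genes of growth arrest and apoptosis. Trp53inp1 was at 102 FPKM in SO and 79.8 FPKM in Ldha_KO, against 24.1 FPKM in WT and 43.4 FPKM in Ldhb_KO, with a gap of 0.86. Ccng1, encoding cyclin G1, was at 175 and 171 FPKM in SO and Ldha_KO, against 81.8 and 97.7 FPKM in WT and Ldhb_KO, with a gap of 0.80. The cell cycle inhibitor gene Cdkn1a had 125 and 130 FPKM in SO and Ldha_KO, against 46.6 and 84.4 FPKM in WT and Ldhb_KO, with a gap of 0.56. In these 3 Ldhb_KO lay between WT and the other side. Eda2r, a death receptor gene with a gap of 0.59, did not show this order, at 27.9 and 51.6 FPKM in SO and Ldha_KO, against 18.2 FPKM in WT and 18.04 FPKM in Ldhb_KO. Of the 30 members, 15 were higher without overlap (50%) and 1 was lower, against 14% and 18.1% of genes kept. Trp53 itself overlapped, at 144 and 130 FPKM in SO and Ldha_KO, against 180 and 104 FPKM in WT and Ldhb_KO.

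Aqp3, Fbp2 and Cryab were on none of the 26 lists. Aqp3, a channel for water and glycerol, was at 44.0 FPKM in SO and 62.6 FPKM in Ldha_KO, against 15.4 FPKM in WT and 14.8 FPKM in Ldhb_KO. Fbp2, a fructose-1,6-bisphosphatase of gluconeogenesis, was at 13.8 and 13.2 FPKM in SO and Ldha_KO, against 4.27 and 3.60 FPKM in WT and Ldhb_KO. Its paralogue Fbp1 showed the same order of sides at low levels, 1.17 and 1.78 FPKM in SO and Ldha_KO, against 0.366 and 0.349 FPKM in WT and Ldhb_KO. The small heat shock protein gene Cryab was at 14.5 and 11.1 FPKM in SO and Ldha_KO, against 2.41 and 4.87 FPKM in WT and Ldhb_KO. Hspb2, its neighbour and relative, fell short with a gap of 0.79, at 16.3 and 18.2 FPKM in SO and Ldha_KO, against 3.72 and 8.98 FPKM in WT and Ldhb_KO. In both of the last genes Ldhb_KO again stood above WT.

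Col4a1, a chain of basement membrane collagen IV, was at 23.8 FPKM in SO and 17.1 FPKM in Ldha_KO, against 6.67 FPKM in WT and 5.96 FPKM in Ldhb_KO. Its partner chain gene Col4a2 had a gap of 0.81, at 7.23 and 6.15 FPKM in SO and Ldha_KO, against 1.89 and 3.09 FPKM in WT and Ldhb_KO. Both were entered on the primitive endoderm list, of which 1 of 18 members separated. On that list, of which 12 members were kept, 6 of the 18 were higher and 2 lower without overlap. Those shares were 14% and 18.1% among genes kept, and the counts were 2971 and 2826 among all 25170 genes. That list summed to 319 FPKM in SO and 302 FPKM in Ldha_KO, against 293 FPKM in WT and 289 FPKM in Ldhb_KO. The defining endoderm regulators Gata6 and Sox17 were below 1 FPKM in all 4 libraries, with Sox17 at 0.0702 and 0.361 FPKM in SO and Ldha_KO, against 0 and 0.0802 FPKM in WT and Ldhb_KO. The fibroblast or feeder list summed to 327 FPKM in SO and 300.1 FPKM in Ldha_KO, against 360 FPKM in WT and 281 FPKM in Ldhb_KO, and 0 of 12 members separated. The trophectoderm list summed to 125 FPKM in SO and 115 FPKM in Ldha_KO, against 79.7 FPKM in WT and 148 FPKM in Ldhb_KO, and 0 of 17 separated. Among all 25170 genes 0.139% separated higher, and 0 in lists of this size is near that share. Without overlap, 2 of the 12 feeder members were higher and 1 lower, and 6 of the 17 trophectoderm members were higher and 1 lower.

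Testis-expressed and other genes at lower levels complete the group. Tex19.2 was at 5.72 FPKM in SO and 12.3 FPKM in Ldha_KO, against 1.58 FPKM in WT and 2.14 FPKM in Ldhb_KO. Tex13b, on the X chromosome, was at 1.84 and 2.45 FPKM in SO and Ldha_KO, against 0.400 and 0.380 FPKM in WT and Ldhb_KO. Both were higher in Ldha_KO than in SO, unlike the 20 separated 2-cell-like genes. Neither was on the germline list, of which 0 of 28 members separated, where 0.139% of all 25170 genes separated higher. On that list 7 members were higher and 1 lower without overlap, against 2971 and 2826 of all genes. Snx20, a sorting nexin, had 4.73 and 6.58 FPKM in SO and Ldha_KO, against 0.507 and 1.51 FPKM in WT and Ldhb_KO. The noncoding RNA Gm13580 had 6.97 and 7.71 FPKM in SO and Ldha_KO, against 2.27 and 1.69 FPKM in WT and Ldhb_KO. Gm4971, a transcribed pseudogene on chromosome 7 outside the runs, had 12.04 and 7.79 FPKM in SO and Ldha_KO, against 1.75 and 0.964 FPKM in WT and Ldhb_KO. The remaining genes, Snora74a and the beta-defensin gene Defb25, were listed at 0 in WT and Ldhb_KO, so no fold is given. Snora74a was at 27.5 FPKM in SO and 16.2 FPKM in Ldha_KO, and Defb25 at 1.45 FPKM in SO and 1.64 FPKM in Ldha_KO. Snora74a is a small nucleolar RNA without a poly(A) tail in a polyadenylated RNA library, and all of its 50-base words lie in another gene's transcripts, so its value is uncertain.

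Chac1 was the single gene that separated lower. It encodes an enzyme that degrades glutathione and is a known target of the stress factor Atf4. Chac1 was at 4.07 FPKM in SO and 2.34 FPKM in Ldha_KO, against 17.1 FPKM in WT and 42.4 FPKM in Ldhb_KO, a gap of -1.84. WT and Ldhb_KO were themselves 1.26 apart on the log2 scale, with Ldhb_KO higher. Of the 31 amino acid starvation genes (30 kept), 11 were lower without overlap, against 18.1% of genes kept and 2826 of all 25170 genes. The next after Chac1 was Trib3, a pseudokinase gene, with a gap of -0.44. Trib3 had 15.3 and 10.3 FPKM in SO and Ldha_KO, against 21.0 and 39.9 FPKM in WT and Ldhb_KO. The median difference of the side means was -0.47 over this list. Most of its members did not follow the sides: Ddit3, a stress transcription factor, was at 8.90 and 21.0 FPKM in SO and Ldha_KO, against 15.6 and 98.3 FPKM in WT and Ldhb_KO. Atf4 was at 130 FPKM in SO and 218 FPKM in Ldha_KO, against 213 FPKM in WT and 264 FPKM in Ldhb_KO. In both, the SO library was lowest and Ldhb_KO highest, with WT and Ldha_KO between. The start window of Chac1, at chr2:119350992-119351291 on the plus strand of GRCm38.p6, is shown because it holds the letters TGATGNAA, the form of site that Atf4 binds together with a C/EBP partner, here in capitals and on the opposite strand.
Chac1: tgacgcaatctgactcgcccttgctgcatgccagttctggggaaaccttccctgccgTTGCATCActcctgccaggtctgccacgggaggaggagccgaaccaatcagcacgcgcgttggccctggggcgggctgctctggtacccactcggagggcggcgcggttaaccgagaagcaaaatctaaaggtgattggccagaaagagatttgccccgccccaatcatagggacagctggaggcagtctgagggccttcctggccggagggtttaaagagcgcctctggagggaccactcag
The match starts at -193 from the annotated start. These letters occurred, on either strand, in 2 of the 20 windows of separated genes, Chac1 and BB287469, and in 3.97% of all windows, and a match is not a measurement of binding.

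Of the 26 lists, 5 held a separated gene and 21 held none. The lists with one were the 2-cell-like genes, the 2-cell regulators through Zscan4c alone, the p53 targets, the primitive endoderm genes and the amino acid starvation genes. Of the 46 regulators found, of which 43 were kept, 4 were higher and 10 lower without overlap. Those shares were 14% and 18.1% among genes kept, and the counts were 2971 and 2826 among all 25170 genes. Dux, described above and below the filter, is 1 of the 4 regulators. Dppa2, an activator upstream of Dux, was at 63.4 and 61.0 FPKM in SO and Ldha_KO, against 76.3 and 49.7 FPKM in WT and Ldhb_KO. Dppa4, its partner, was at 64.5 and 51.6 FPKM in SO and Ldha_KO, against 74.5 and 57.8 FPKM in WT and Ldhb_KO. Both overlapped between the sides. The elongation factor subunit gene Nelfa was higher without overlap by 0.17, at 51.4 and 51.9 FPKM in SO and Ldha_KO, against 45.8 and 41.5 FPKM in WT and Ldhb_KO. Ehmt2, a histone H3 lysine 9 methyltransferase, was lower without overlap by 0.45, at 37.4 and 36.8 FPKM in SO and Ldha_KO, against 51.3 and 54.2 FPKM in WT and Ldhb_KO. None of the 23 genes of Hdac1 and its complexes separated, and 2 were higher and 7 lower without overlap, where 14% and 18.1% of genes kept were.

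None of the 32 pluripotency genes separated, and 6 were higher and 12 lower without overlap, against 14% and 18.1% of genes kept. Nanog was higher without overlap by 0.11, at 541 and 591 FPKM in SO and Ldha_KO, against 503 and 424 FPKM in WT and Ldhb_KO. Sox2 was lower without overlap by 0.11, at 344 and 204 FPKM in SO and Ldha_KO, against 371 and 389 FPKM in WT and Ldhb_KO, and the side means differed by -0.52. Esrrb was lower by 0.12, at 207 and 220 FPKM in SO and Ldha_KO, against 240 and 248 FPKM in WT and Ldhb_KO. Pou5f1, Klf4 and Zfp42 overlapped. Pou5f1 was at 1115 and 972 FPKM in SO and Ldha_KO, against 1330.1 and 1084 FPKM in WT and Ldhb_KO. Klf4 was at 133 and 193 FPKM in SO and Ldha_KO, against 124 and 142 FPKM in WT and Ldhb_KO. Zfp42 was at 523 and 526 FPKM in SO and Ldha_KO, against 624 and 500.5 FPKM in WT and Ldhb_KO. These gaps are small beside the 2-fold rule and have no replicate error to be set against. The largest gap among the 32 pluripotency genes was that of Gbx2, lower by 0.63, at 6.85 and 4.16 FPKM in SO and Ldha_KO, against 27.7 and 11.1 FPKM in WT and Ldhb_KO. No hypoxia, glycolysis or imprinted gene on the lists separated, where 0.266% of genes kept separated higher.

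**Figure D5:**
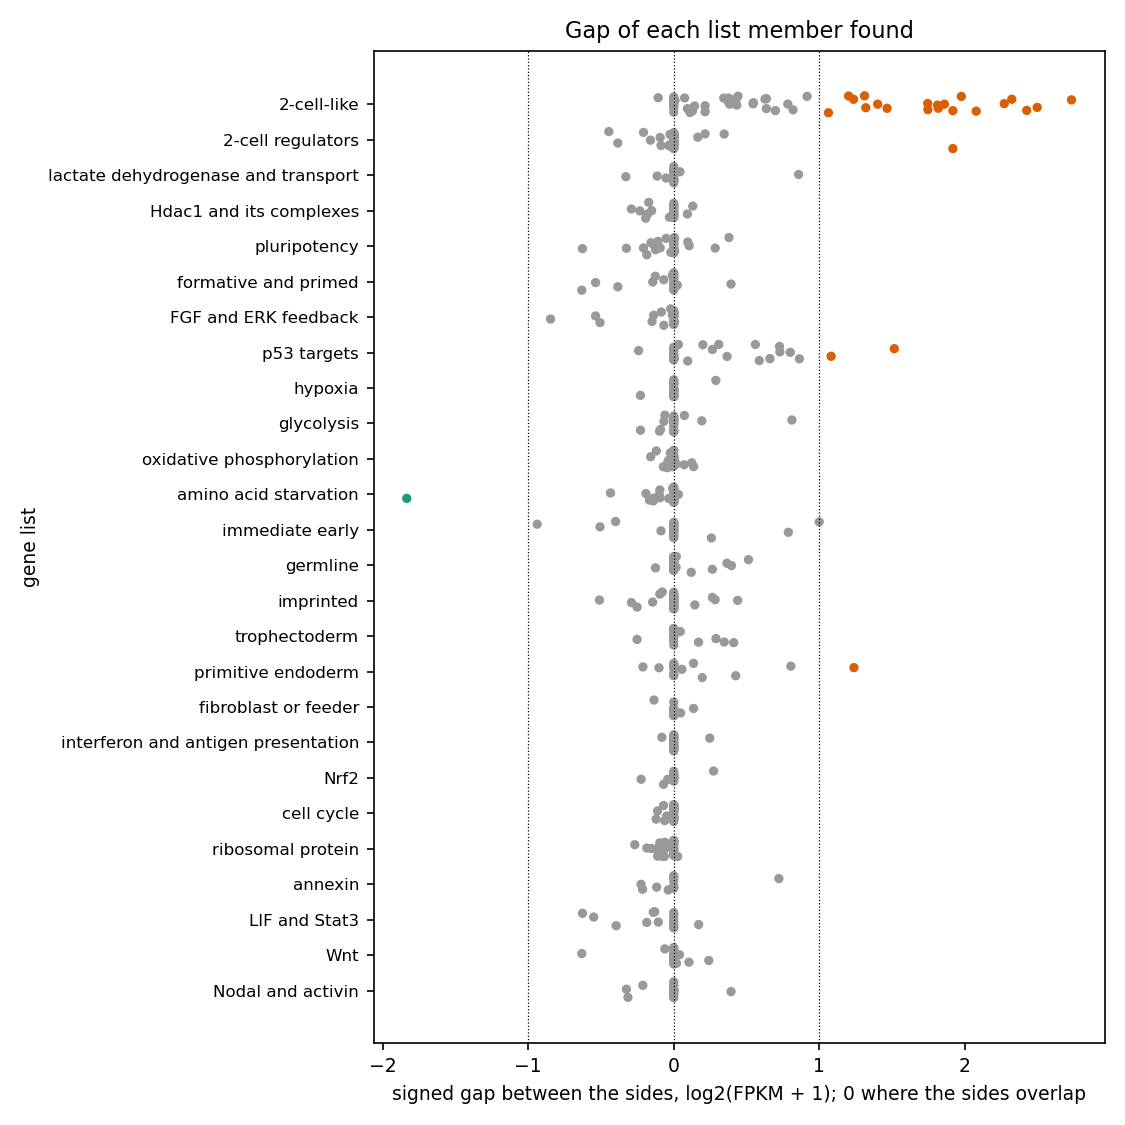
Signed gap between the sides in log2(FPKM + 1) for each list member found in the tables, 1 row per list, with points spread vertically so that they can be seen; orange points separate higher, green lower, and 0 means that the sides overlap. The 2-cell-like row holds 20 orange points, the p53 row 2, the regulator row 1 (Zscan4c, also in the first row), and the single green point is Chac1.

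At the threshold, the genes just inside were Tex13b, with a gap of 1.02, Cryab with 1.04 and BB287469 with 1.06. Just outside on the higher side were Ccn2 and Slc1a1, each with a gap just under 1, and BC147527 with 0.98. Ccn2, a matricellular protein gene, was at 21.9 and 54.1 FPKM in SO and Ldha_KO, against 10.5 and 9.68 FPKM in WT and Ldhb_KO. Slc1a1, a glutamate transporter gene, was at 16.5 and 17.1 FPKM in SO and Ldha_KO, against 6.61 and 7.73 FPKM in WT and Ldhb_KO. Just outside on the lower side were the histone gene H3c10 with -0.98, Tsacc with -0.97 and the AP-1 gene Junb with -0.94. Junb was at 24.8 and 14.2 FPKM in SO and Ldha_KO, against 48.4 and 58.8 FPKM in WT and Ldhb_KO. Between gaps of 0.5 and 1 there were 104 further genes higher and 74 lower, so the directions were less unequal there than past the threshold.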

How the data were processed

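The authors deposited, for each of 4 libraries, 1 value per gene symbol, read here as FPKM made by the authors. That reading comes from the values, which are not whole numbers and have unequal sums. They may equally be RPKM. The submitters' processing notes name edgeR 3.26.8, HTSeq 0.11.2, Bowtie2 2.3.4.3, SAMtools 1.9 and the build mm9. The sources used here give neither their roles nor the annotation. Of all values, 57 were above 0 and below 0.001, which is less than a read is worth, and none was in a separated gene.

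Values were compared on the log2(FPKM + 1) scale, with a pseudocount of 1, over genes with at least 1 FPKM in at least 1 library. Such differences understate changes of low genes. With 1 library per group no test was run. The separation calls were checked on simulated data. The 26 lists held 659 entries, of which 649 were found by symbol or RefSeq synonym (GRCm38.p6). Members, sides and lists were chosen with earlier results of these data known.

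Genes named were Ldha, Ldhb, Ldhc and Hdac1, up to 15 genes with the largest gaps among those separated in each direction (1 separated lower) and at least 5 FPKM in a library, up to 4 separated members per list, Zscan4 and Usp17l members, Dux, Zfp352, Tcstv1, Tcstv3, 6 pluripotency factors, the 3 genes just inside and outside the threshold, and the 10 separated genes with the largest difference between SO and Ldha_KO. Any further gene was picked with its values in view. Runs of genes allow at most 10 table genes between separated ones, and use gene order only. Printed coordinates are those of the RefSeq windows (GRCm38.p6) and were not joined to mm9. Computations used Python 3.11.15, pandas 2.3.3 and numpy 2.4.6.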

Additional observations from a re-analysis of the deposited data

How the results depend on the processing

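Of the 35 genes higher in SO and Ldha_KO, 30 were also called with a filter of 5 FPKM, which removes the other 5, and 35 with each looser setting. With a pseudocount of 0.1 the counts were 85 higher and 24 lower, and with 0.5 they were 52 and 11. A gap of 0.5 gave 139 and 75, and a gap of 2 gave 7 and 0, with 6 of the 7 from the 2-cell-like list. The difference of the side means, with no overlap, gave 115 and 40. Rescaling to the summed value of WT gave 45 and 1, and moved the median difference of the genes kept to 0.06 from -0.02, and rescaling by the median ratio to WT gave 40 and 1. The share of higher genes among those called was 97.2%, and 78.0% and 82.5% with pseudocounts of 0.1 and 0.5.

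Leaving out a library makes the rule easier to meet by construction. The counts were then 101 higher and 34 lower without SO, 102 and 23 without Ldha_KO, 72 and 75 without WT and 151 and 22 without Ldhb_KO, so that the single-direction result holds for the 4 libraries together and ends without WT. The 2-cell-like count was 20 to 28 in these 4 settings. Each of the 2-cell-like genes called was called higher under the alternatives other than the gap of 2 and the filter of 5 FPKM, which kept 6 and 18 of the 20. The 2-cell-like share of the higher genes, 57.1% in the report, was 32.9% with a pseudocount of 0.1, 20.1% at a gap of 0.5, 23.5% by side means and 15.9% to 29.2% without a library. Gaps of 55 genes were recomputed and 0 reversed, and the other genes named were not recomputed. The small gaps of Ldha, Sox2 and Esrrb went to 0 on rescaling to the summed value of WT. No paired analysis was possible because each group has 1 library. With unknown depth, no counting interval could be given for low values such as those of Dux and Tcstv1.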
